A study of Mus musculus with 6 samples.

Results

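The ILC progenitor state genes described here are Tcf7, Lef1, Tox, Zbtb16, Kit, Il18r1 and Pdcd1, chosen by name as genes known from early stages of the innate lymphoid cell (ILC) lineage and followed in lung ILC2s of neonatal mice. They are 7 of the 55394 genes listed for every library. An eighth entry that carried the name Zbtb16 was left out, because its identifier belongs to Commd5 in the GENCODE M21 annotation. Of the 7 genes, 5 (Tcf7, Lef1, Tox, Kit and Pdcd1) reached 1 FPKM in at least 3 of the 6 libraries and entered the test across 8718 genes, whereas Il18r1 and Zbtb16 did not. FPKM, fragments scaled to transcript length and to the mapped fragments of the library, is the unit of all levels given.

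Pregnant C57BL/6 mice received an antibiotic cocktail (Abx; ampicillin, metronidazole, neomycin and vancomycin per the methods) in the drinking water between gestation days 10 and 14, and their wild-type pups formed the Abx group. The control (Con) group came from wild-type pups of dams without antibiotics. Lung ILC2s were sorted as CD45+Lin-CD90.2+CD25+ cells, 1000 cells were lysed for each SMART-seq library, and 3 libraries were deposited per group. Neither the age and sex of these pups nor the pooling of animals is given for the libraries, and nothing says that they came from separate animals, so that p-values measure only the spread between libraries.

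ILCs arise from lymphoid progenitors through a series of stages in which T cell potential is lost and the regulators of helper-like ILCs are switched on. TCF-1, the protein of Tcf7, and TOX act early in this series, PLZF, the protein of Zbtb16, is transiently high in a committed precursor, and PD-1, the protein of Pdcd1, marks progenitors at a similar stage and also activated ILC2s. In the lung of young mice, cells with IL-18 receptor and TCF-1 but little ST2 have been described as tissue precursors, and KIT is a receptor of progenitors, mast cells and some ILC2s. Several of these genes are shared with other cells, since Tcf7, Lef1 and Tox are also used by developing T cells.

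The libraries listed between 7074 and 9203 genes at 1 FPKM or more, with 7074 to 8193 in the Abx group and 8574 to 9203 in the Con group. The 100 highest genes took 41.5% to 45.3% of each total, and the depth is unknown because no counts were used here. Of 16 ILC2 markers, Gata3, Rora, Id2, Il7r, Il2ra, Icos, Klrg1, Areg, Il17rb, Arg1 and Hes1 were above 10 FPKM in all 6 libraries. Ptgdr2 was listed at 0 in each, and Il1rl1, which encodes ST2, stayed between 0.01 and 2.94 FPKM. Il5 and Il13 were listed at 0 in all 3 Con libraries. In Abx libraries 1, 2 and 3 Il5 measured 0, 57.7 and 24.5 FPKM and Il13 measured 0, 10.8 and 10.1 FPKM. In every Abx library, 4 of the 16 (Icos, Areg, Arg1 and Il1rl1) were below all Con libraries and none was above. Over all tested genes 8.73% were below and 8.49% above. Il1rl1 was not tested across genes, and its lowest Con value of 0.06 FPKM lay close to the Abx values of 0.01 to 0.03 FPKM. Icos, a costimulatory receptor of ILC2s, had a mean of 272 ± 27.3 FPKM in the Con and 106 ± 20.5 FPKM in the Abx group (SD, n = 3 each; difference -1.37 in log2(FPKM + 1), SE 0.23, adjusted p = 0.0911, limma). Areg, the gene of the repair factor amphiregulin, had 740 ± 72.0 and 289 ± 98.6 FPKM (difference -1.40, SE 0.27, adjusted p = 0.0911, limma). Xist ranged from 3.78 to 5.09 FPKM in Con pups but had a listed value of 0 in all Abx libraries, so that exposure and whatever sets the level of this X-linked transcript of female cells cannot be told apart in these groups. A listed 0 is not proof that an RNA was missing, as Polr2h, a subunit of RNA polymerases used by every cell, had 0 in Abx library 3 but 71.3 FPKM in Abx library 2.

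The 7 genes did not differ in one direction. Tcf7 was listed at 0 in every Con library and lay near 20 to 30 FPKM in every Abx library, Kit was lower in every Abx library than in any Con library, and the ranges of the other 5 genes overlapped between groups. No gene of the 7 passed the test across genes (limma on log2(FPKM + 1), Benjamini-Hochberg adjusted p below 0.05 and a fold change above 2), where 0.0459% of all tested genes were called higher and 0.0115% lower in the Abx group. At an unadjusted p below 0.05 there were 2 of the 5 tested genes, Tcf7 higher and Kit lower, beside 4.74% of all tested genes higher and 6.25% lower (11% in either direction). The same 2 genes had groups that did not overlap, 1 in each direction, beside 8.49% of all tested genes higher and 8.73% lower (17.2% in either direction). Both genes passed the filter through 1 group alone, Tcf7 through the Abx and Kit through the Con libraries, so a difference was built into their selection and these counts are a description only. With 3 libraries per group the exact two-sided permutation test cannot give a p below 0.1.

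**Figure D1:**
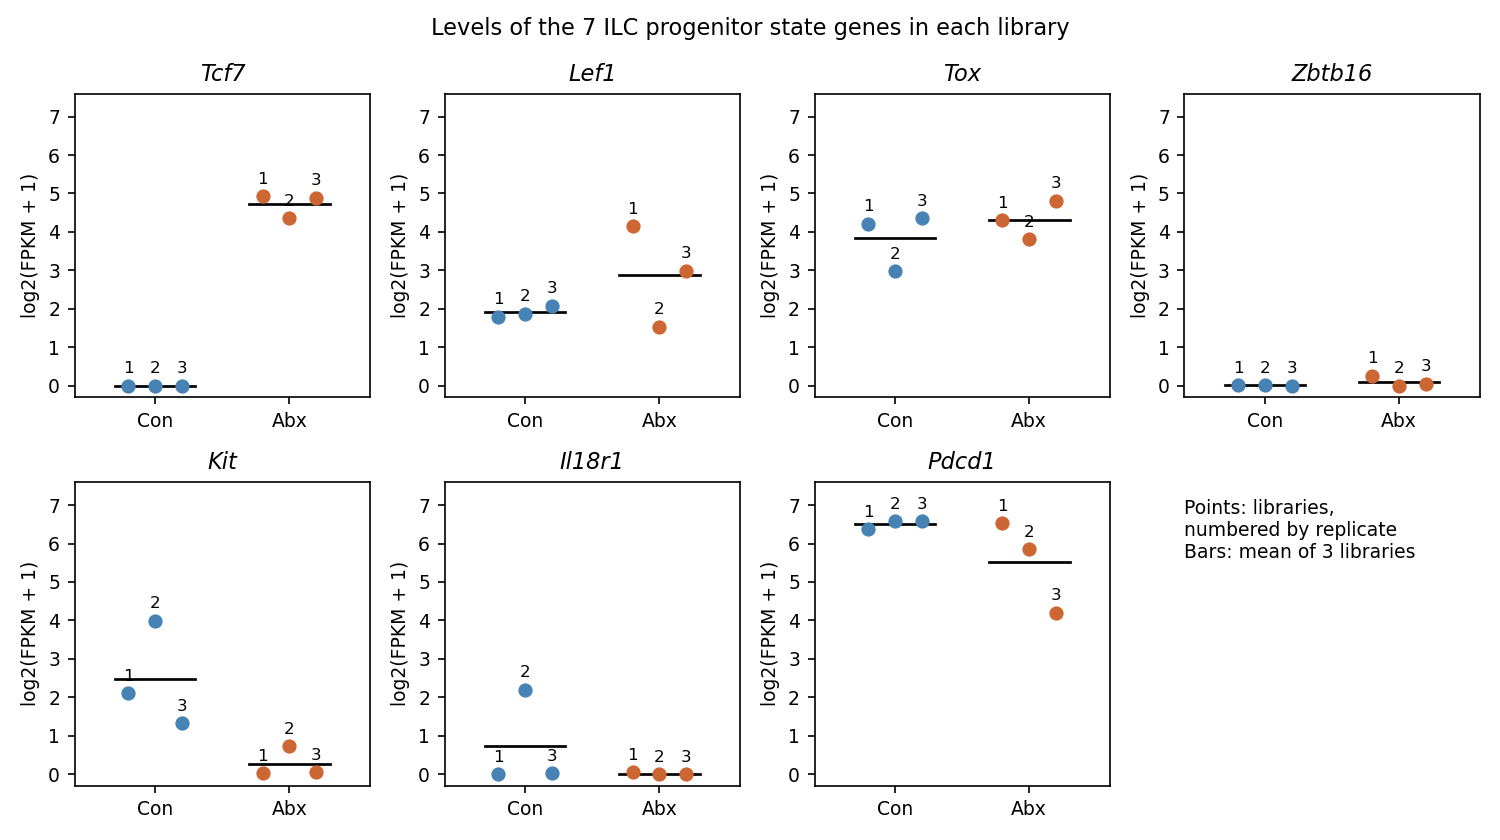
Levels of the 7 genes as log2(FPKM + 1), with 1 panel per gene, 1 numbered point per library (Con in blue, Abx in orange) and a bar at the mean of each group of 3 libraries. Tcf7 separates the groups upwards and Kit downwards, Zbtb16 lies near 0 in all 6 libraries, Il18r1 is above 1 FPKM in Con library 2 alone, and Pdcd1, Tox and Lef1 overlap.

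Tcf7, which encodes the HMG-box transcription factor TCF-1, had a listed 0 in Con libraries 1, 2 and 3 against 29.4, 19.4 and 28.6 FPKM in Abx libraries 1, 2 and 3. The groups did not overlap, and the 3 Abx libraries lay close together. On the log2(FPKM + 1) scale the Abx group was higher by 4.72 (SE 0.66), with an adjusted p of 0.0911 by limma and an exact permutation p of 0.1 (two-sided), the smallest that this design allows. Since a group at 0 sets the size of this difference through the pseudocount, no fold change is given. By the fitted difference Tcf7 was the 7th highest of the 8718 tested genes, and by unadjusted p (0.000128, limma) it was the 9th. Tcf7 entered the test through the Abx libraries alone, so these ranks are a description only.

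Few genes had such a pattern. Of the 8718 tested genes, 2 (0.0229%) were listed at 0 in all Con libraries and at 10 FPKM or more in all Abx libraries, Tcf7 and the T cell receptor gamma segment Tcrg-V4, which had 48.9, 28.1 and 16.8 FPKM in Abx libraries 1, 2 and 3. The opposite pattern was also shown by 2 genes. Genes of either pattern passed the filter through a single group, so these counts are a description only. GENCODE M21 places Tcf7 (ENSMUSG00000000782) on the minus strand of GRCm38 at chr11:52252371-52283014 with 2625 exonic bases in 2 transcripts, and RefSeq draws a wider Tcf7 gene on the same assembly. The noncoding genes A630014C17Rik and Gm26551 overlap its span but none of its exons. Its expressed neighbours did not share the zeros of the Con group, because Skp1a, a ubiquitin ligase subunit, was at 108 to 176 FPKM in the Con and 130 to 187 FPKM in the Abx libraries, and Vdac1, a mitochondrial channel, ranged over 42.4 to 70.8 and 9.16 to 51.0 FPKM.

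Lef1 encodes the closest relative of TCF-1 in lymphocytes. It gave 2.47, 2.66 and 3.24 FPKM in Con libraries 1, 2 and 3 against 16.7, 1.89 and 6.91 FPKM in Abx libraries 1, 2 and 3. Abx libraries 1 and 3 exceeded all Con libraries, but Abx library 2 was the lowest of the 6, so the groups overlapped. The means were 2.79 ± 0.401 and 8.51 ± 7.55 FPKM (SD, n = 3 each), and the difference of 0.97 (SE 0.85) on the log2(FPKM + 1) scale did not pass (adjusted p = 0.743, limma; exact permutation p = 0.4). Without Abx library 1 it was 0.34. Lef1 (ENSMUSG00000027985) lies at chr3:131110471-131224356 on the plus strand, and its exons overlap those of Gm43352, so reads of both may be shared.

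Tox, whose product is an HMG-box factor needed for ILC progenitors, measured 17.6, 6.89 and 19.6 FPKM across the Con libraries against 18.8, 13.0 and 27.1 FPKM across the Abx libraries. All 6 libraries expressed it, and Con library 2 held the lowest value. The means of 14.7 ± 6.81 and 19.6 ± 7.08 FPKM (SD, n = 3 each) differed by 0.46 (SE 0.56) on the log2(FPKM + 1) scale, less than the spread between libraries (adjusted p = 0.833, limma; exact permutation p = 0.5). Without Con library 2 the difference was 0.02. Tox (ENSMUSG00000041272, chr4:6686353-6991557, minus strand) has exons that overlap Gm11802.

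Zbtb16, the gene of PLZF, measured 0.01, 0.01 and 0 FPKM across the Con libraries against 0.20, 0 and 0.03 FPKM across the Abx libraries. It stayed below 1 FPKM in each library and was not tested across genes, and its difference of 0.09 on the log2(FPKM + 1) scale had an exact permutation p of 0.4. The Commd5 entry that bears the same name measured 17.0, 35.9 and 36.8 FPKM across the Con against 112, 45.6 and 92.1 FPKM across the Abx libraries. Taking that entry for Zbtb16 would have turned an almost silent gene into one whose groups did not overlap, with a difference of 1.43 (SE 0.47, adjusted p = 0.262, limma). Zbtb16 (ENSMUSG00000066687) lies at chr9:48654297-48836222 on the minus strand, and Commd5 (ENSMUSG00000055041) at chr15:76899910-76901305.

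Among the receptors, Kit, the receptor tyrosine kinase for stem cell factor, measured 3.30, 14.9 and 1.51 FPKM in Con libraries 1, 2 and 3 against 0.02, 0.65 and 0.03 FPKM in Abx libraries 1, 2 and 3. Every Abx library was below every Con library, but the Con libraries differed widely among themselves. The means were 6.57 ± 7.28 and 0.233 ± 0.361 FPKM (SD, n = 3 each), and the difference was -2.21 (SE 0.78) on the log2(FPKM + 1) scale (adjusted p = 0.309, limma; exact permutation p = 0.1). Without Con library 2 it was -1.45. Kit (ENSMUSG00000005672) occupies chr5:75574916-75656722 on the plus strand with 8911 exonic bases. Its ligand gene Kitl stayed at or below 0.07 FPKM in all 6 libraries.

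Il18r1, the ligand-binding chain of the IL-18 receptor, measured 0, 3.59 and 0.02 FPKM across the Con libraries against 0.03, 0 and 0 FPKM across the Abx libraries. Con library 2 was thus the only one above 1 FPKM, and the gene was not tested across genes. The difference of -0.73 on the log2(FPKM + 1) scale (exact permutation p = 0.7) rested on this library, since it was -7.0e-05 without it. The signalling chain gene Il18rap was measured in all libraries, with 4.39, 11.4 and 8.84 FPKM across the Con against 3.37, 2.61 and 7.22 FPKM across the Abx libraries, with overlapping groups (difference -0.78, SE 0.73, adjusted p = 0.761, limma). Con library 2 was therefore the highest library for both chains.

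Il18r1 (ENSMUSG00000026070, chr1:40465552-40500854, plus strand) sits in a row of interleukin-1 receptor family genes. Upstream of it, Il1r1, the receptor of IL-1, and Il1rl2, the receptor of IL-36, were at or below 0.12 and 0.02 FPKM, and Il1r2, a decoy receptor, ranged from 0.02 to 9.47 FPKM in the Con and from 0.09 to 23.0 FPKM in the Abx libraries. Il1rl1, the gene of the IL-33 receptor ST2 that ends just before Il18r1, measured 0.06, 0.89 and 2.94 FPKM across the Con libraries against 0.03, 0.01 and 0.03 FPKM across the Abx libraries. Con library 3 was thus the highest for Il1rl1 while Con library 2 was the highest for Il18r1, and no library reached 1 FPKM for both.

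**Figure D2:**
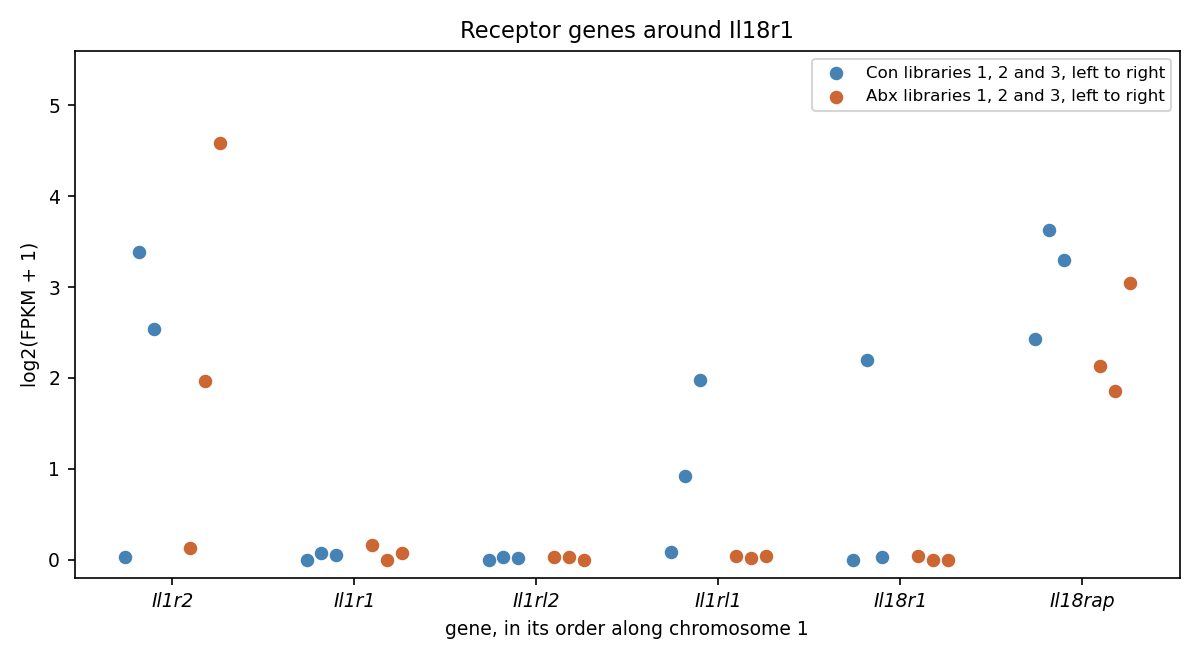
Levels of 6 neighbouring receptor genes as log2(FPKM + 1), in their order along chromosome 1 without distances, with points for Con (blue) and Abx (orange) libraries 1 to 3 from left to right. Il18r1 and Il1rl1 each rise above 1 FPKM in 1 Con library, and Il18rap is the gene of the row present in all 6 libraries.

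Pdcd1, which encodes the inhibitory receptor PD-1, was the highest of the 7 genes in 5 of the 6 libraries, with Tcf7 and Tox above it in Abx library 3. It gave 81.9, 94.5 and 94.8 FPKM across the Con libraries against 91.0, 56.6 and 17.3 FPKM across the Abx libraries. The Con libraries agreed closely, whereas the Abx libraries spread from a Con-like level to the lowest value, so the groups overlapped. The means were 90.4 ± 7.35 and 55.0 ± 36.9 FPKM (SD, n = 3 each), with a difference of -0.99 (SE 0.56) on the log2(FPKM + 1) scale (adjusted p = 0.595, limma; exact permutation p = 0.2). Without Abx library 3 the difference was -0.32. Pdcd1 (ENSMUSG00000026285) lies at chr1:94038305-94052553 on the minus strand, with 1930 exonic bases in 1 transcript.

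Read library by library, the genes were not high and low together as a block. Each library had 4 of the 7 genes at 1 FPKM or more, except Con library 2 with 5, and no library had all 7. Tox, Lef1 and Pdcd1 were present in all 6 libraries. Kit completed the Con libraries and Tcf7 the Abx libraries. Of the 5 tested genes, 4 were above their median over the 6 libraries in Con library 3 and in Abx library 1, 3 in Abx library 3, 2 in Con library 2, and 1 in Con library 1 and in Abx library 2.

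Within the Abx group, library 1 was the highest for Tcf7, Lef1 and Pdcd1 and the lowest for Kit. Abx library 2 was the reverse for most of these, with the highest Kit and the lowest Tcf7, Lef1 and Tox. Abx library 3 held the highest Tox and the lowest Pdcd1. Within the Con group, library 2 held the highest Kit and the lowest Tox, and library 3 the highest Pdcd1, Tox and Lef1.

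**Figure D3:**
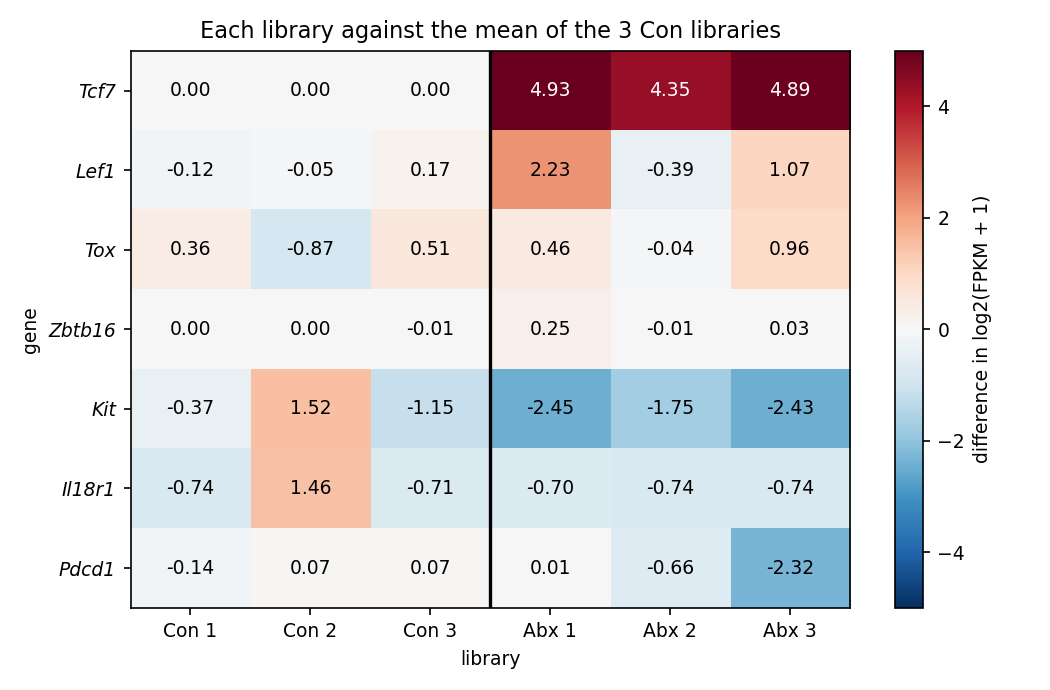
Difference of each library from the mean of the 3 Con libraries in log2(FPKM + 1), with genes in rows, libraries in columns, red for higher and blue for lower. Tcf7 is higher by 4.35 to 4.93 in the Abx libraries and Kit differs by -2.45 to -1.75, while Lef1, Tox and Pdcd1 each change sign or size between Abx libraries.

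The order of libraries within a group was compared for each of the 10 pairs of tested genes, as a description without a test. In the Abx group, 14 of 30 comparisons between 2 libraries put both genes of a pair in the same order and 16 in the opposite order. Tcf7 and Lef1 were the 1 pair ordered alike in all 3 Abx comparisons, and Kit was ordered opposite to both Tcf7 and Lef1 in all 3. In the Con group, where Tcf7 was tied at 0, 9 of 18 comparisons had the same order and 9 the opposite. There Pdcd1 and Lef1 were ordered alike in all 3 comparisons and Kit and Tox oppositely in all 3. Between groups, 4 of the 10 pairs had differences of the same sign. By sign alone 3 of the 5 tested genes (Tcf7, Lef1 and Tox) were higher in the Abx group, beside 47% of all tested genes.

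Genes with the nearest pattern were found by the mean absolute distance between log2(FPKM + 1) values over the 6 libraries after the Con mean of each gene was subtracted. Nearest to Tcf7 were the cyclin gene Ccne2 (0.236), Tcrg-V4 (0.326) and the T cell receptor beta segment Trbv13-2 (0.404). Nearest to Lef1 were the T cell receptor alpha segments Trav12-1 (0.144) and Trav12-2 (0.172) and the predicted gene Gm37352 (0.189). The Trav12 segments are close copies within one family, so reads may be shared between them. Nearest to Kit were Nxn (0.262), Cog6 (0.319) and Spata2 (0.359), to Pdcd1 Hint3 (0.144), Lrrc59 (0.165) and Parp16 (0.170), and to Tox Nono (0.115), Chordc1 (0.127) and Gm47428 (0.143).

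Several markers of immature thymocytes were higher in the same libraries as Tcf7. Dntt, the terminal transferase of antigen receptor rearrangement, measured 0.03, 0.02 and 11.6 FPKM across the Con against 75.9, 140 and 156 FPKM across the Abx libraries. Ptcra, the pre-T cell receptor alpha chain, measured 6.13, 0 and 0 FPKM across the Con against 63.1, 44.6 and 15.2 FPKM across the Abx libraries. Of the 12 thymocyte markers, 6 (Dntt, Ptcra, Rag1, Cd8b1, Cd3d and Satb1) were above all Con libraries in every Abx library and 2 (Arpp21 and Tcf12) below, where 8.49% of all tested genes were above and 8.73% below. Rag1 was not tested across genes, and of the 7 tested markers 5 were above and 2 below. The summed level of the 12 was 236 to 386 FPKM in the Con and 293 to 477 FPKM in the Abx group, and Rag2, the partner of Rag1 in recombination, was listed at 0 in all 6 libraries.

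Rag1 had 12.3, 0.99 and 7.80 FPKM in Abx libraries 1, 2 and 3, the same order of libraries as Lef1 and Tcf7. Dntt, Ptcra, Cd3d, Cd8b1 and Satb1 each ordered the Abx libraries differently from Lef1 and Tcf7. Of 14 T cell markers, which share Cd3d, Cd4, Cd8a and Cd8b1 with the thymocyte list, 6 (Cd3d, Cd3g, Cd8b1, Trbc1, Trbc2 and Lat) were above all Con libraries in every Abx library and none was below, beside the same 8.49% and 8.73% of all tested genes, and the sum was 1364 to 1560 FPKM in the Con and 2753 to 3083 FPKM in the Abx group. Among them Cd4 was listed at 0 except in Abx library 2 (7.46 FPKM), and Cd8a reached 1 FPKM in Con library 1 alone (3.25 FPKM). The lineage antibodies of the sort, per the methods, were directed at TCR-beta, CD8a, CD5, CD4 and CD3e among others. In a bulk library, more cells of a type and more RNA per cell cannot be told apart, and the part of other cells in the levels of Tcf7 and Lef1 was not tested.

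**Figure D4:**
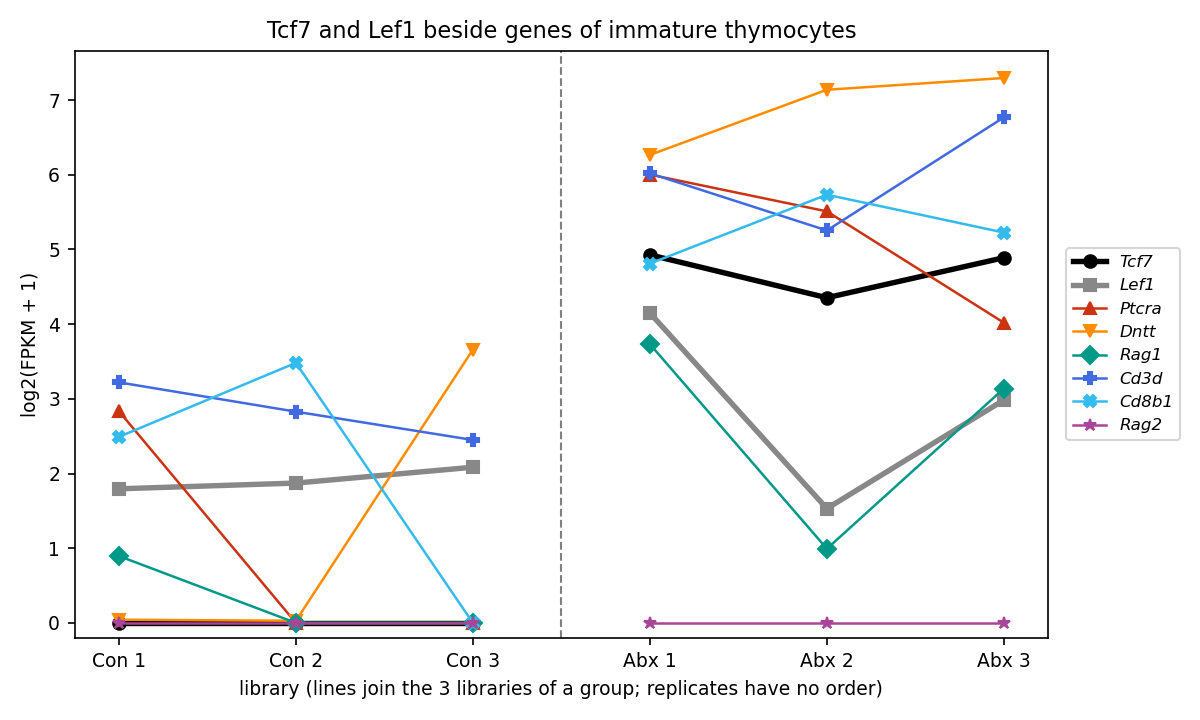
Levels of Tcf7 (black) and Lef1 (grey) as log2(FPKM + 1) in each library beside 6 genes of immature thymocytes, with Con libraries left and Abx libraries right of the dashed line. Dntt, Ptcra, Rag1, Cd3d and Cd8b1 are higher in every Abx library than in any Con library, and Rag2 is listed at 0 throughout. Of the markers not drawn, Satb1 is also higher, but Arpp21 and Tcf12 are lower in every Abx library than in any Con library.

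Some markers of several other cell types were also higher in the Abx libraries, where Tcf7 was. The 11 B cell markers summed to 549 to 711 FPKM in the Con and 1178 to 1428 FPKM in the Abx group. Of these, 4 (Ighm, Igkc, Cd74 and Ms4a1) were above all Con libraries in every Abx library and 2 (Cd79b and Cd22) below. Over all tested genes 8.49% were above and 8.73% below. The 10 markers of NK cells and ILC1s summed to 17.4 to 86.6 FPKM in the Con and 288 to 431 FPKM in the Abx group, with 2 above and none below, beside the same 8.49% and 8.73% of all tested genes. These were Gzma, the granzyme A gene, with 13.8, 10.8 and 0 FPKM across the Con against 224, 218 and 215 FPKM across the Abx libraries, and Nkg7, a cytotoxic granule gene, with 37.3, 7.61 and 9.12 FPKM against 113, 212 and 52.2 FPKM. The defining NK and ILC1 genes Klrb1c, Klra7, Tbx21 and Prf1 were listed at 0 in all 6 libraries. Gzmb (difference -1.79), Ncr1 (-1.05) and Klrd1 (-0.25) were lower in the Abx group on the log2(FPKM + 1) scale, with overlapping groups. Ncr1, not tested across genes, was above 0 in Con library 1 alone (7.90 FPKM).

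Of the 10 markers of innate-like T cells, 5 (Traj18, Trdc, Trdv4, Slamf6 and Sh2d1a) were above all Con libraries in every Abx library and none was below. Over all tested genes 8.49% were above and 8.73% below. Traj18, not tested across genes, was listed at 0 in each Con library and at 27.8, 0.08 and 0.25 FPKM in Abx libraries 1, 2 and 3. The marker sums were 427 to 516 FPKM in the Con and 509 to 779 FPKM in the Abx group. Fewer differed in the remaining lists. Of 8 epithelial markers Sftpc was above and Sftpa1 below. Of 10 myeloid markers Csf1r, not tested across genes, was above at no more than 0.36 FPKM. None of the 8 markers of ILC3s and LTi cells or of the 8 of endothelium and stroma was without overlap. Sftpb, Cdh1, Il22 and Il23r were listed at 0 in all 6 libraries. The part of these cells in the levels of Tcf7 and Lef1 was not tested either.

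Markers of mast cells and basophils were set beside Kit, which both progenitors and mast cells use. The mast cell protease genes Tpsb2, Tpsab1 and Cma1 were at 11.6, 19.9 and 17.8 FPKM in Con library 1 and at or below 0.04 FPKM in the other 5 libraries. Con library 2, with the highest Kit, had all 3 listed at 0 but held the highest Ms4a2 (4.20 FPKM), a chain of the IgE receptor, and the highest Mcpt8 (36.9 FPKM), a basophil protease. Hdc (5.18 FPKM), Gata2 (0 FPKM) and Cpa3 (287 FPKM) were lowest there among the Con libraries. Of the 10 markers, Mcpt8 and Ms4a2, the latter not tested across genes, were below all Con libraries in every Abx library. None was above, beside 8.73% of all tested genes below. Most of the sum was Cpa3, a mast cell and basophil protease, at 287 to 396 FPKM in the Con and 176 to 293 FPKM in the Abx libraries, with sums of 333 to 488 FPKM in the Con and 194 to 541 FPKM in the Abx group, where Gata2 gave 245 FPKM in Abx library 3, and Mcpt4 was at or below 0.05 FPKM throughout. Their part in the level of Kit was not tested. Among 10 markers of haematopoietic progenitors, Mpo and Prtn3 were listed at 0 in all 6 libraries, Flt3 was at or below 0.01 FPKM and Cd34 at or below 0.70 FPKM, and the sum of 242 to 375 FPKM in the Con and 58.7 to 294 FPKM in the Abx group came mostly from Ly6a, the 1 marker below all Con libraries in every Abx library, and from Gata2.

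The other genes of the ILC progenitor program did not follow one direction either. Of 25 such genes, 21 were tested, with 9 higher and 12 lower in the Abx group, a median difference of -0.15 against -0.06 over all tested genes (both in log2(FPKM + 1)), and 0 called by limma. Over all tested genes 47% were higher in the Abx group. Beside 11% of all tested genes, 2 of the 21 had an unadjusted p below 0.05. Sox4, an SRY-related factor of lymphoid progenitors, measured 3.37, 1.46 and 4.10 FPKM across the Con against 24.0, 13.3 and 9.14 FPKM across the Abx libraries, a difference of 2.02 (SE 0.70, adjusted p = 0.305, limma). Nfil3, a factor required for ILC specification, measured 237, 248 and 276 FPKM across the Con against 171, 155 and 164 FPKM across the Abx libraries, a difference of -0.63 (SE 0.19, adjusted p = 0.222, limma). Neither pair of groups overlapped.

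Id2, the inhibitor of E proteins that all ILCs need, was at 782 to 1053 FPKM in the Con and 966 to 1315 FPKM in the Abx libraries (difference 0.37, SE 0.20, adjusted p = 0.575, limma). Gata3, the master regulator of ILC2s, ranged from 76.1 to 97.5 FPKM in the Con and from 33.9 to 95.8 FPKM in the Abx libraries (difference -0.63, adjusted p = 0.654, limma). Bcl11b, a factor of the ILC2 and T cell lineages, ranged from 3.55 to 8.77 and from 7.25 to 11.3 FPKM, Il7r, the IL-7 receptor chain, from 18.1 to 56.4 and from 45.2 to 57.3 FPKM, and Il2rb, the shared chain of the IL-2 and IL-15 receptors, from 52.7 to 115 and from 29.2 to 69.0 FPKM. The groups overlapped for each of these 5 genes. Tox2, a paralogue of Tox, was listed at 0 in 5 libraries and at 6.72 FPKM in Con library 2, the library with the lowest Tox.

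**Figure D5:**
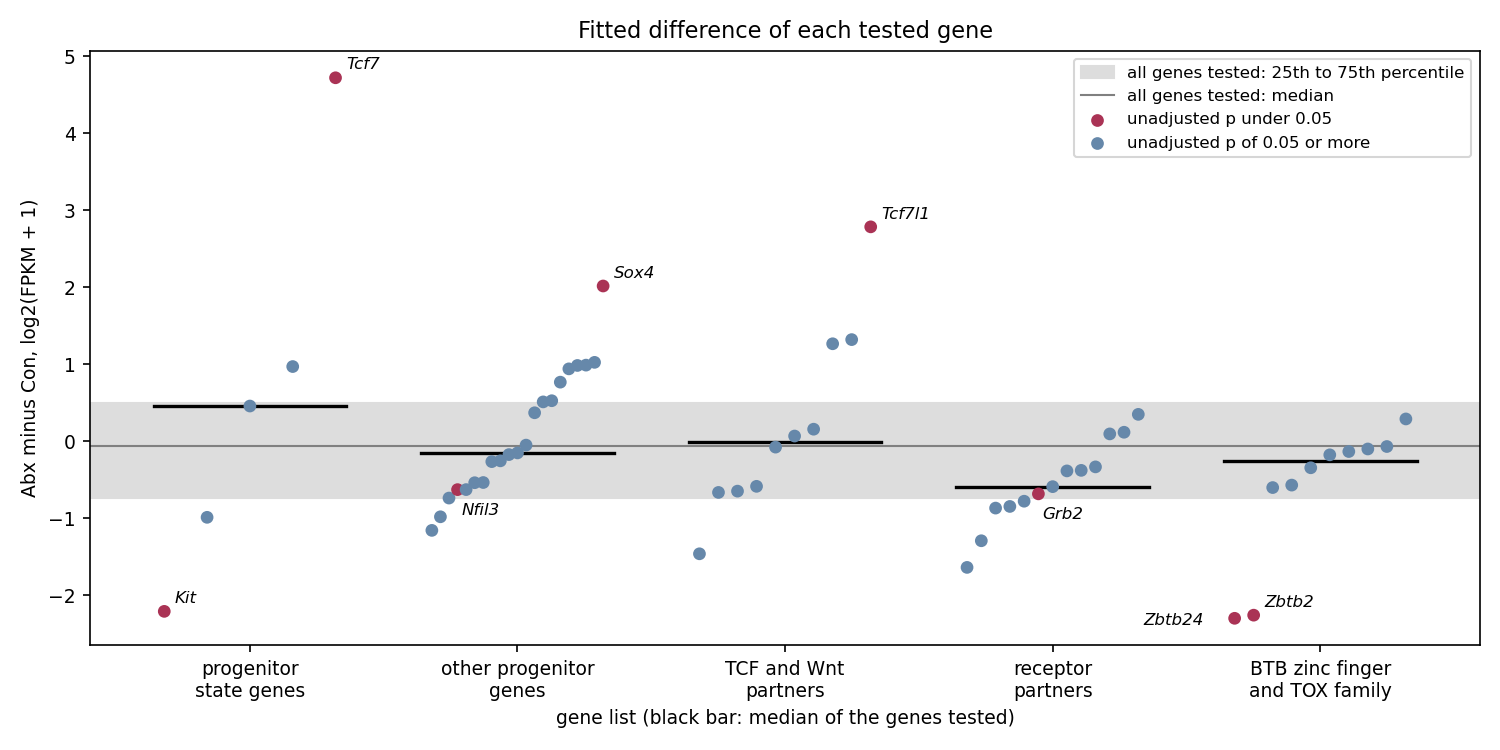
Fitted Abx minus Con difference in log2(FPKM + 1) of each tested gene in the 5 gene lists, with a black bar at the list's median, red for an unadjusted p below 0.05 (limma), and a grey band for the 25th to 75th percentile of all 8718 tested genes. The medians are 0.46 for the progenitor state genes, -0.15 for the other progenitor genes, -0.59 for the receptor partners and -0.26 for the BTB and TOX family, and no gene shown passes the adjusted test.

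Partners of TCF-1 and LEF-1 were measured as a list of 21 genes of the TCF family and the Wnt pathway. Of the 10 that were tested, 5 were higher and 5 lower, where 47% of all tested genes were higher. None was called by limma. Beside 11% of all tested genes, 1 of the 10 had an unadjusted p below 0.05. This was Tcf7l1, a TCF family repressor, with 3.23, 0.04 and 4.48 FPKM across the Con against 28.4, 7.97 and 29.1 FPKM across the Abx libraries (difference 2.79, SE 0.91, adjusted p = 0.266, limma). The Abx libraries were all above the Con libraries, and library 2 was the lowest of each group.

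Tcf7l2, another TCF family member, was at or below 0.26 FPKM throughout. Ctnnb1, the gene of the TCF coactivator beta-catenin, measured 32.5, 0.15 and 36.7 FPKM across the Con against 27.1, 31.2 and 24.0 FPKM across the Abx libraries, a range set by the low value of Con library 2. Axin2, a common target of Wnt signalling, was at or below 0.80 FPKM in the Con libraries but measured 2.32, 0 and 1.50 FPKM across the Abx libraries, and was not tested across genes. The corepressor genes Tle4 and Tle3 had overlapping groups, with differences of -1.46 (SE 1.05) and -0.65 (SE 0.51) and adjusted p of 0.694 and 0.713 (limma).

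Ligands, coreceptors and adaptors of KIT, the IL-18 receptor and PD-1 formed a list of 20 genes, of which 13 were tested. In the Abx group 3 were higher and 10 lower, where 47% of all tested genes were higher. The median was -0.59, against -0.06 over all tested genes. None was called by limma. Beside 11% of all tested genes, 1 of the 13 had an unadjusted p below 0.05. Grb2, an adaptor of KIT and other kinases, measured 79.1, 84.6 and 77.0 FPKM across the Con against 46.6, 42.2 and 61.9 FPKM across the Abx libraries, without overlap (difference -0.68, SE 0.27, adjusted p = 0.400, limma). Pdcd1lg2, which encodes the PD-1 ligand PD-L2, measured 22.6, 44.9 and 25.1 FPKM across the Con against 14.2, 19.2 and 14.1 FPKM across the Abx libraries, also without overlap (difference -0.87, SE 0.44, adjusted p = 0.535, limma).

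The gene of the other PD-1 ligand, Cd274, ranged from 0.16 to 5.12 FPKM in the Con and from 0.15 to 12.4 FPKM in the Abx libraries. Irak2, a kinase downstream of IL-1 family receptors, was at 4.14 to 10.9 FPKM in the Con libraries but 0.05, 12.1 and 0.10 FPKM across the Abx libraries (difference -1.64, SE 1.11, adjusted p = 0.670, limma). Both had overlapping groups.

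Relatives of PLZF and TOX made up the last list, of 16 genes with BTB zinc finger or TOX family products. Of the 10 tested, 1 was higher and 9 lower, where 47% of all tested genes were higher. The median was -0.26, against -0.06 over all tested genes. None was called by limma. Beside 11% of all tested genes, 2 of the 10 had an unadjusted p below 0.05. Zbtb24, a BTB zinc finger gene linked to DNA methylation, measured 2.05, 6.44 and 4.53 FPKM across the Con against 0, 0 and 0.05 FPKM across the Abx libraries, without overlap (difference -2.30, SE 0.52, adjusted p = 0.115, limma). Zbtb24 passed the filter through the Con libraries alone, so a difference was built into its selection and the count of 2 is a description only. Zbtb2 measured 11.9, 8.87 and 4.06 FPKM across the Con against 4.70, 0.01 and 0.02 FPKM across the Abx libraries, where Abx library 1 exceeded Con library 3 (difference -2.26, SE 0.91, adjusted p = 0.406, limma). Zbtb1, needed for lymphoid development, ranged from 1.84 to 9.47 and from 1.22 to 3.97 FPKM.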

How the data were processed

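Lung ILC2 libraries of the Abx and Con groups (3 each, grouped by their labels) were measured by SMART-seq. The deposited values are FPKM per gene for each library, made by the authors with Cutadapt, HISAT2 and StringTie per the methods, which name a human Ensembl release 96 annotation although the identifiers are mouse. The submitters' processing notes list Bowtie 0.12.2 and the builds mm8 and mm9 instead, and the order of use is not given. Of 55394 identifiers, 55134 matched GENCODE M21 (GRCm38), which supplied symbols, positions and exon lengths, since the files hold no positions. Whole reads could not be recovered from the FPKM values (22.5% to 23.5% of low values near a multiple, against 20% by chance), so depth is unknown and no count test was run.

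Values were tested as log2(FPKM + 1) with limma 3.58.1 in R 4.3.3 (empirical Bayes with an intensity trend, Benjamini-Hochberg adjustment over the 8718 genes that reached 1 FPKM in 3 or more libraries). A gene was called at an adjusted p below 0.05 and a fold change above 2. Fold changes on this scale understate the change of low genes. Single genes were also tested with exact two-sided permutation in Python 3.11.15, and figures were drawn with matplotlib 3.10.9. The script was tested on simulated data.

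The text names the 7 genes, in each pathway list the called genes or otherwise the 3 with the smallest unadjusted p plus a fixed set of partners, the 3 genes nearest in pattern to each tested gene, and markers of the cell type lists that were at 0 throughout or whose groups did not overlap, besides those needed to check a cell type. The genes, lists and tests were chosen with earlier results of these data known. The neighbours of Tcf7 and Il18r1 on their chromosomes, Tcrg-V4, Xist and Polr2h fell outside this rule and were chosen after their values were seen. Alternatives varied the pseudocount, normalization, filter, variance model, replicate block and libraries.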

Additional observations from a re-analysis of the deposited data

How the results depend on the processing

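The differences of the 7 genes kept their sign in all 86 alternatives that gave a value, and 0 reversed. Without Con library 2, however, those of Il18r1 (-7.0e-05) and Tox (0.02) were close to 0. The 5 tested genes also kept their side of the threshold. For Il18r1 and Zbtb16 only the sign was compared, because their exact permutation p cannot go below 0.1. None of the 7 was called by limma in any setting with adjusted p, and 2 (Tcf7 and Kit) were at an unadjusted p below 0.05 with a fold above 2. The size for Tcf7 ran from 4.62 to 11.3 with an adjusted p of 0.0864 to 0.293, and its largest size came with a pseudocount of 0.01. Kit ran from -5.51 to -1.45, Lef1 from 0.34 to 1.65, Tox from 0.02 to 0.71 and Pdcd1 from -1.49 to -0.32, the ends of the last 3 coming from leaving out 1 library. Kit had no value with the filter at a mean of 5 FPKM, and Il18r1 and Zbtb16, under the filter, had none with the filter at a mean of 5 FPKM or the block. The other variance model was applied to the counts of called genes alone, not to the differences of the 7 genes.

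The replicate numbers did not pair the libraries, since libraries of the same number correlated at -0.020, -0.029 and 0.010 in their deviations from the group means. With the replicate number as a block, 0 genes were called higher and 0 lower, and the adjusted p was 0.293 for Tcf7 and 0.341 for Kit.

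Over all tested genes, 4 were called higher and 1 lower. With an unadjusted p these counts were 315 and 499. With a pseudocount of 0.1 or 0.01, with median centring or with no filter on low values they were 0 and 0. Quantile normalization and the filter at a mean of 5 FPKM each gave 2 called lower. Leaving out each library in turn gave 0 to 0 called higher and 0 to 2 called lower. The cause was not tested. The median difference over all genes went from -0.06 to -0.17 with a pseudocount of 0.01. Unknown depth, zeros that may be failed estimates and 3 libraries per group limit what can be seen of Il18r1 and Zbtb16.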
